A study of Mus musculus with 4 samples.

Results

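Aminoacyl-tRNA synthetases attach each amino acid to its tRNA, and their RNA levels were described here in spinal motor neurons of mice that carry a wild-type or a mutant SOD1 transgene. The genes were taken by symbol: every entry made of a 1-letter amino acid code followed by ars or ars2, plus Eprs, Farsa, Farsb and the complex-associated proteins Aimp1, Aimp2 and Eef1e1. Of the 27189 entries with expression values, 38 met this rule, 21 cytosolic and 17 mitochondrial, and each symbol had 1 entry. Aimp1 and Aimp2 were found only under their older symbols Scye1 and Jtv1, which lie outside the rule, and are given apart.

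The study sequenced polyadenylated RNA from ventral horn motor neuron cell bodies, stained with Azure B, cut out of frozen spinal cord sections with a laser and pooled to between 3000 and 4000 for each animal. The study did not capture the cells with large, bright aggregates seen in some G85R sections, so the G85R values do not cover them. Its question was how RNA levels differ between mice with G85R SOD1-YFP and mice with wild-type SOD1-YFP before paralysis begins. All 4 mice were 3 months old, on a mixed C57BL/6J x SJL/J background, and transgenic for a genomic fragment of human SOD1, the superoxide dismutase gene mutated in some inherited amyotrophic lateral sclerosis, fused to yellow fluorescent protein. Each genotype had 2 libraries, each from 1 mouse. The replicate spread given here thus holds that between animals together with that of capture, RNA extraction and library preparation, which cannot be told apart.

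The wild-type SOD1-YFP mice were strain 592 and the G85R SOD1-YFP mice strain 737, and no mouse without a transgene was part of these data. The transgene has the SOD1 gene's own genomic surroundings rather than a motor neuron promoter, so other cells of the cord carry it in working form too. Strain 737 is homozygous for a large transgene array on chromosome 4, the chromosome on which Yars, Rars2 and Pars2 lie, and strain 592 has far fewer copies. With 1 strain per genotype, the mutation, the copy number and the strain cannot be told apart.

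Cells have separate sets of these enzymes for the cytosol and for the mitochondrial matrix, and both sets are encoded in the nucleus. In the cytosol several synthetases are held with 3 non-catalytic proteins in a multi-tRNA synthetase complex, and the others act on their own. Synthetases fall into classes I and II by the fold of their catalytic domain, and dominant mutations in several cytosolic ones cause inherited peripheral neuropathy, in which motor and sensory axons degenerate. Genes for cytosolic synthetases are also known targets of ATF4, the transcription factor of the amino acid and stress response that follows phosphorylation of eIF2.

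Because ATF4 binds, with C/EBP partners, a short element of the letters TGATGNAA, promoter windows were searched for it on both strands. Windows ran from 250 bases before to 50 bases after the gene start in RefSeq, and 28 of the 38 genes, 14 cytosolic and 14 mitochondrial, had one. The element was found in 5 of the 14 cytosolic windows and in 0 of the 14 mitochondrial ones, and in 4.51% of the 27025 genes with a window. A match for each is shown because these are the members whose promoters hold the letters of the stress element, with the match in capitals, 5′ to 3′ on the strand of the gene, and with coordinates on NCBIM37.
Yars, chr4:128867140-128867167, plus strand: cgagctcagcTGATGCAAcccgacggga
Gars, chr6:54987955-54987982, plus strand: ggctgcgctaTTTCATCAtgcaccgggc
Aars, chr8:113557741-113557768, plus strand: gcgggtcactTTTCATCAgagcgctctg
Iars, chr13:49777496-49777523, plus strand: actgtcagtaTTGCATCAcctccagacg
Tars, chr15:11329411-11329438, minus strand: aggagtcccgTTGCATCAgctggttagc

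The match read forwards in Yars, beginning 3 bases after the gene start, and in reverse complement in the others. It began 30 bases before the start in Gars, 15 before in Tars and 7 after in Iars, and the match shown for Aars began 9 bases after its start. Among the mitochondrial enzymes, Iars2, the gene with the largest difference between genotypes, is shown with its match to GCGCANGCG, a core of the element of NRF1, a regulator of nuclear genes for mitochondrial proteins.
Iars2, chr1:187153253-187153281, minus strand: cgccccggagCGCGTGCGCagttcctcgc

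The NRF1 letters, here in reverse complement and 9 bases after the start, were in 8 of the 28 windows, 4 cytosolic and 4 mitochondrial, and in 7.03% of all genes with a window. Of the other motifs searched, 7 in all, the letters AAGATGGCG of YY1 were in 5 windows (1.64% of all genes), CCGGAAGT of ETS factors in 3 (4.31%), CCAAT in 14 (41.1%) and TATAAA in 3 (15.7%). The cyclic AMP element TGACGTCA was in 0 of the 28 windows and in 2.03% of all genes. A match describes the letters in the window and is not evidence of a bound factor.

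Levels are in RPKM, which scales the reads of a gene by its transcript length and by the mapped reads of the library. Different genes can thus be set side by side only as far as the lengths used hold, and these were not checked. Hars and Aars, at 124 and 125 RPKM in wild-type replicate 1, had 3722 and 17866 estimated reads there. The same limit applies to every order, share and ratio of genes below. The median over genes of the RPKM that 1 read gave was between 0.0195 and 0.0226 in the 4 libraries, and the estimated reads behind a synthetase ran from 69, for Ears2 in G85R replicate 2, to 25927, for Nars in the same library. Motor neuron markers were present in each library, at widely different levels. The RPKM of Chat, Slc18a3, Slc5a7, Isl1, Mnx1 and Prph summed to 1370 and 1642 in wild-type replicates 1 and 2. In G85R replicates 1 and 2 they summed to 1191 and 1452, and 1 of the 6 had a higher mean in G85R. Prph (647 to 870 RPKM) and Slc18a3 (309 to 477) made up most of the sum, while Mnx1 (15.1 to 18.3) and Isl1 (4.41 to 6.37) were far lower. Prph was lower in both G85R libraries, at 647 and 709 RPKM against 757 and 870 in wild-type. Its adjusted p was 0.439 from limma and 0.000518 from a log-linear test that takes the RPKM as counts. The study names Prph among the genes with reduced RNA in G85R. Glial RNA was present as well. The 6 oligodendrocyte markers summed to 860 and 807 in wild-type replicates 1 and 2 and to 1027 and 786 in G85R replicates 1 and 2, with 3 of them higher in mean in G85R. The 6 astrocyte markers summed to 33.8 and 37.1 for wild-type replicates 1 and 2 and 124 and 49.0 for their G85R counterparts, 5 of the 6 had a higher mean in G85R, and Gfap rather than the whole list made up most of the excess (11.5 and 17.1 against 91.9 and 28.4 RPKM, adjusted p = 0.212 from limma and 3.03e-11 from a log-linear test that takes the RPKM as counts). Microglial markers summed to 6.41 and 6.02 in wild-type replicates 1 and 2 and to 9.45 and 5.56 in G85R replicates 1 and 2. Their mean was higher in G85R for 6 of 6, though the sum was lowest in G85R replicate 2. Endothelial markers summed to between 6.97 and 9.27, with a higher mean in G85R for 2 of 5, and none of the markers in any list was at 0. In pooled cells like these, fewer cells of a type and less RNA per cell cannot be told apart.

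All 38 genes were expressed, with a mean over the 4 libraries from 1.10 RPKM for Wars2, at percentile 1.60 of the 11530 genes with a mean of at least 1 RPKM, to 327 RPKM for Nars, at percentile 98.7. Gars and Kars, whose genes give the enzyme of both compartments, were counted as cytosolic. The genes counted as cytosolic were far higher in RPKM than the mitochondrial ones. Their median was 39.7 RPKM against 7.26 RPKM, beside 10.1 RPKM over all genes tested. Summed over the 38 genes the RPKM came to 1827 and 1764 for wild-type replicates 1 and 2 and 1831 and 1785 for their G85R counterparts, of which the mitochondrial enzymes made up 8.01% and 7.84% for wild-type replicates 1 and 2 and 8.79% and 8.53% for their G85R counterparts. Gars alone, at 176 to 204 RPKM, was above the mitochondrial sum of 138 to 161 RPKM, so the mitochondrial share depends on where Gars is counted. Nars, Sars, Gars, Hars and Aars, the enzymes for asparagine, serine, glycine, histidine and alanine, gave between 56.2% and 56.5% of the sum in every library.

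**Figure D1:**
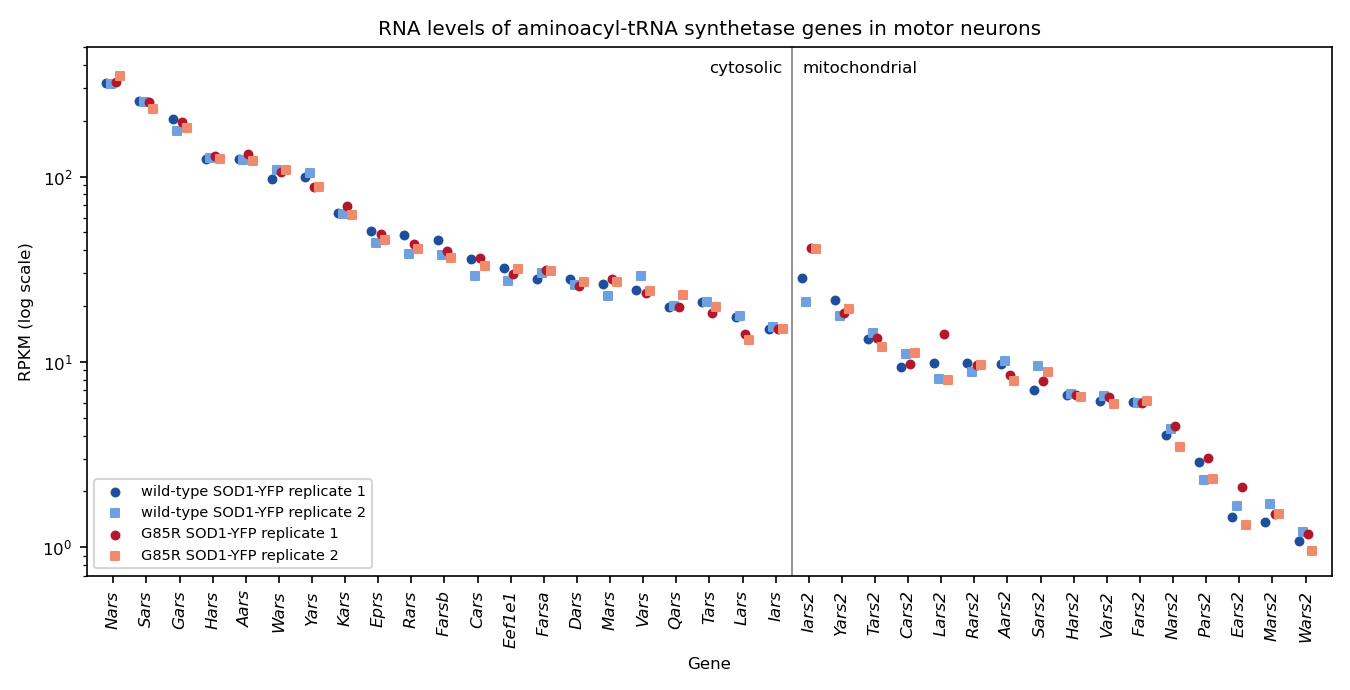
RPKM (log axis) of the synthetase genes in each of the 4 libraries, ordered by mean within the cytosolic and mitochondrial sets, with a point per library. Nars is highest at 316 to 349 RPKM, Wars2 lowest at 0.956 to 1.21 RPKM, and the clearest separation of the genotypes is in Iars2.

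The order of the levels was best separated at its ends. Of the 37 neighbouring pairs in the order of means, 15 had ranges over the 4 libraries that did not touch and 22 overlapped. Nars lay above Sars, Sars above Gars, and Gars above Hars in every library, while Hars and Aars did not differ beyond their spread. Among mitochondrial enzymes 6 of 16 neighbouring pairs were apart, including Fars2 above Nars2, Nars2 above Pars2 and Pars2 above Ears2. The coefficient of variation over the 4 libraries ran from 1.19% for Fars2 to 30.1% for Iars2, with a median of 7.80%, and exceeded 20% in 3 genes, which were Iars2, Lars2 and Ears2.

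For 14 amino acids the 2 compartments have enzymes of single function from separate genes, and these pairs were compared in RPKM. The cytosolic gene was the higher in every library in 13 of the 14, with a median ratio of 4.74. The widest ratio was that of the tryptophan enzymes, with Wars between 89.1 and 113 times as high as Wars2, followed by the asparagine enzymes, with Nars between 71.8 and 101 times as high as Nars2. The isoleucine enzymes were the exception, since the ratio of Iars to Iars2 was 0.530 and 0.738 for wild-type replicates 1 and 2 and 0.369 and 0.366 for their G85R counterparts. Mitochondrial Iars2 thus exceeded cytosolic Iars in RPKM in all 4 libraries, by 1.36 to 2.73 times. In estimated reads, not scaled by length, Iars2 was the lower in both wild-type libraries (1380 and 1089 against 1915 and 2103). It was slightly the higher in both G85R libraries (1825 and 1935 against 1760 and 1856). The order in wild-type thus rests on the lengths used, which were not checked. Iars2 has 4 transcript models and Iars 1. The next lowest ratios were those of threonine (Tars to Tars2, 1.37 to 1.64) and leucine (Lars to Lars2, 1.77 and 2.20 in wild-type, 1.00 and 1.63 in G85R). Tarsl2, a second cytosolic threonine enzyme outside the rule, was at 17.1 to 20.4 RPKM and is not part of the threonine ratio. That ratio rests on the lengths used as well, since Tars had 1611 and Tars2 396 estimated reads in wild-type replicate 1.

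**Figure D2:**
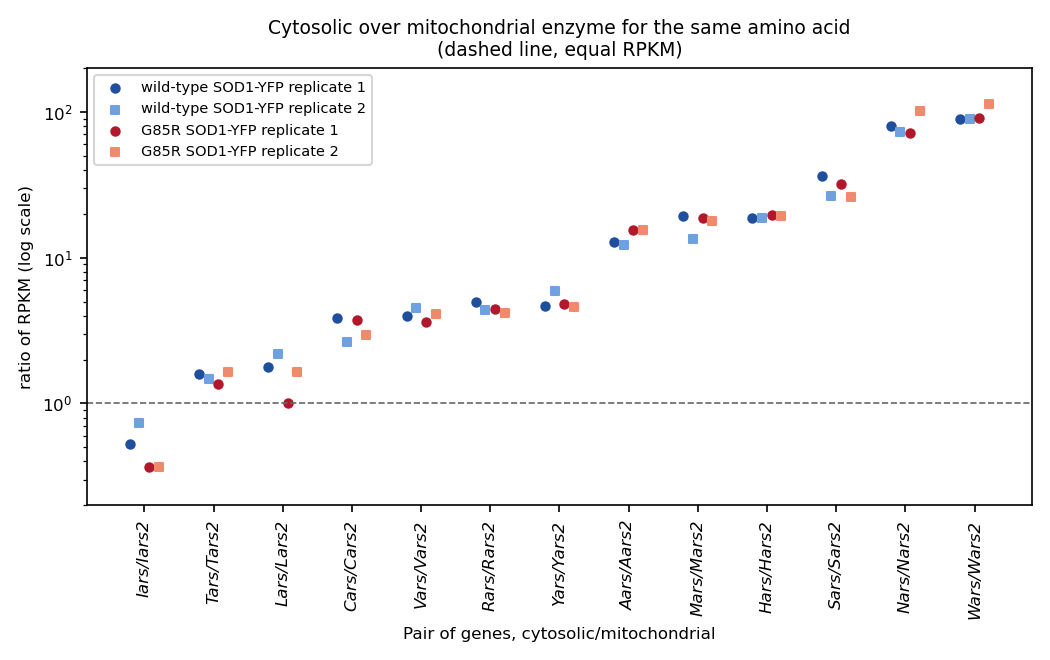
Ratio of the RPKM of the cytosolic gene to that of the mitochondrial gene for the same amino acid (log axis) in each library, for pairs ordered by mean ratio. The points of Iars/Iars2 lie under the line of equal levels, between 0.366 and 0.738, and Lars/Lars2 reaches it, at 1.00, in G85R replicate 1.

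No synthetase passed the main test between genotypes, which did not pair the libraries. In limma on log2(RPKM + 0.1), with adjustment over all 11530 genes tested, 0 of the 38 genes passed an adjusted p of 0.05, a threshold that 0.642% of all genes tested passed (74 genes). At an unadjusted p under 0.05, 1 synthetase was higher in G85R, Iars2, against 4.66% of all genes, and 1 was lower, Lars, against 6.37%. A log-linear likelihood ratio test, rebuilt after the kind the study names and here taking the RPKM as counts, gave a raw p under 0.05 for 1 of the 38, again Iars2, against 2.95% of all genes, and 0 after adjustment. The log2 difference, G85R minus wild-type, had a median of 0.00 over the cytosolic genes (12 above 0 and 9 below) and -0.01 over the mitochondrial genes (8 above and 9 below), beside -0.02 over all genes tested. The median size of the difference, whatever its sign, was 0.07 for the 38 genes and 0.12 for all genes tested, with median standard errors of 0.12 and 0.14.

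The intervals bound how large a difference could have been missed. The 95% interval of 37 of the 38 genes lay within a doubling or a halving, Iars2 being the exception, and that of 30 genes lay within 0.5 on the log2 scale. Both G85R values lay above both wild-type values in 4 genes, Iars2, Mars, Farsa and Nars, where 17.3% of all genes tested did so. Both lay below in 7, among them Lars, Yars, Aars2, Vars, Tars and Hars2, where 23.9% did, and the genotypes overlapped in the other 27. The difference between genotype means was larger than the difference between replicates of either genotype in 6 genes, among them Iars2, Lars, Yars, Aars2 and Tars, or 15.8% of the 38 against 29.1% of all genes tested.

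**Figure D3:**
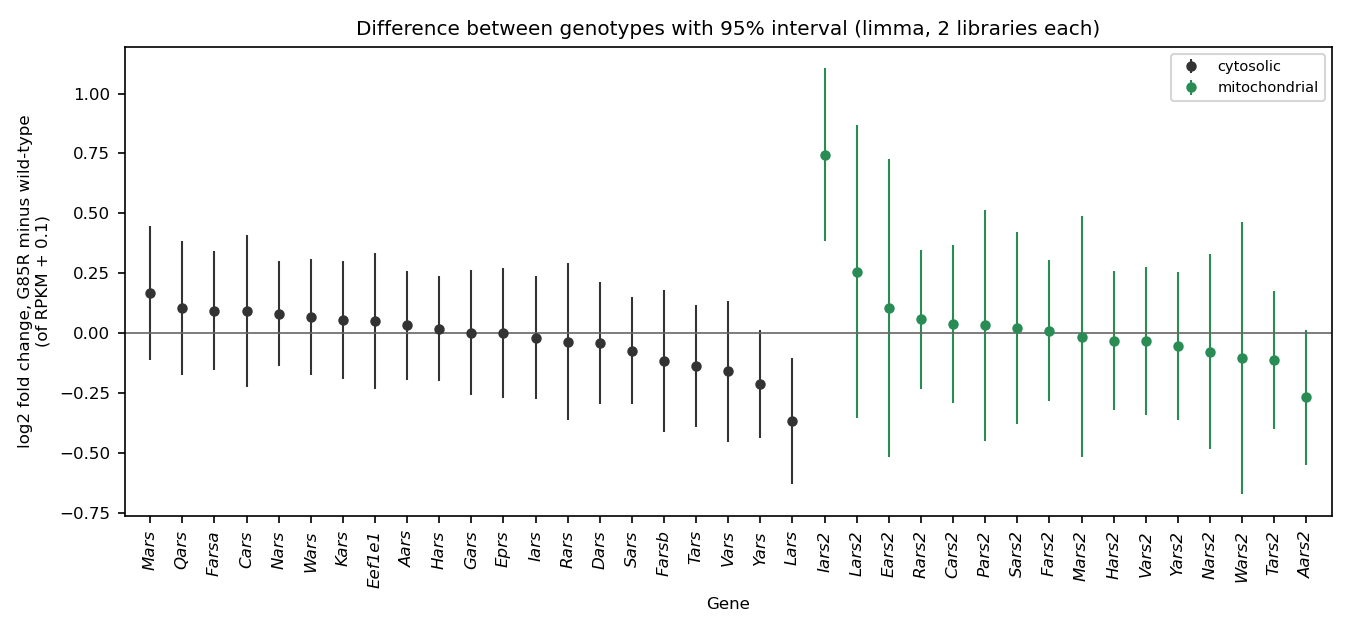
Difference between genotypes, G85R minus wild-type, in log2(RPKM + 0.1), with its 95% interval from limma (2 libraries per genotype), for cytosolic and mitochondrial genes in order of size. The interval of Iars2 lies above 0 (0.38 to 1.11), that of Lars below it (-0.63 to -0.10), and those of the other genes drawn include it.

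Iars2 charges the mitochondrial isoleucine tRNA and had the highest RPKM of the mitochondrial synthetases in each library. Its RNA was at 28.2 and 20.98 RPKM in wild-type replicates 1 and 2 and at 40.9 and 40.8 RPKM in G85R replicates 1 and 2. The G85R libraries were nearly equal and both above the wild-type ones, which differed from each other more than those of most synthetases did. The mean was 24.6 ± 5.14 RPKM in wild-type and 40.9 ± 0.0408 RPKM in G85R (SD, n = 2 each), a log2 difference of 0.74 (SE 0.15) or 1.68-fold, with a 95% interval of 1.31-fold to 2.15-fold. The unadjusted p was 0.00182 and the adjusted p 0.118 in limma, so the difference did not pass the threshold over all genes in the main fit. It did pass, at an adjusted p of 0.00351 in limma, when same-numbered libraries of the 2 genotypes were taken as pairs. The labels do not state such a pairing. Without wild-type replicate 1 the log2 difference was 0.96 and the adjusted p 0.0191, without the other libraries in turn the adjusted p lay between 0.115 and 0.178, and over all 15 alternative limma fits it ranged from 0.00351 to 0.628. The log-linear test gave Iars2 an adjusted p of 0.749.

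The summed RPKM of the mitochondrial enzymes was 146 and 138 in wild-type replicates 1 and 2, and higher in both G85R replicates, at 161 and 152. Iars2 made up 19.3% and 15.2% of the mitochondrial sum in wild-type and 25.4% and 26.8% in G85R replicates 1 and 2. With Iars2 left out the sums were 118 and 117 RPKM in wild-type and 120 and 112 RPKM in G85R, and the genotypes overlapped. Astrocyte markers summed to 124 and 49.0 in G85R replicates 1 and 2, and the part of astrocyte RNA in the Iars2 values was not tested.

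Iars2 lies on chromosome 1 of NCBIM37 (187108605 to 187153275, minus strand), between Rab3gap2 and Bpnt1 in the order of the tables' genes, and Eprs, another synthetase, lies just beyond Bpnt1. Rab3gap2 was at 32.7 and 37.7 RPKM in wild-type and 31.6 and 29.5 RPKM in G85R. Bpnt1 was at 22.0 and 20.8 RPKM in wild-type and 26.4 and 21.9 RPKM in G85R. Their log2 differences were -0.20 and 0.17, neither past the adjusted threshold (adjusted p = 0.605 and 0.713 from limma), against 0.74 for Iars2.

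Lars, the leucine enzyme of the cytosolic complex, was the gene with the lowest log2 difference. It was at 17.5 and 17.7 RPKM in wild-type and at 14.2 and 13.1 RPKM in G85R replicates 1 and 2. The genotypes did not overlap, and the replicates of each were close. The log2 difference was -0.37 (SE 0.11, 95% interval -0.63 to -0.10), with an unadjusted p of 0.0135 and an adjusted p of 0.295 in limma. Over the 15 alternative limma fits the adjusted p lay between 0.0821 and 0.584, and the log-linear test gave an adjusted p of 1. The adjoining entry AK204365 was also lower in both G85R libraries (31.6 and 30.3 against 22.9 and 27.5 RPKM, log2 difference -0.30, adjusted p = 0.442 from limma). BC038171, on the other side, was higher in both (0.522 and 0.573 against 0.667 and 0.718 RPKM) and too low to be tested.

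**Figure D4:**
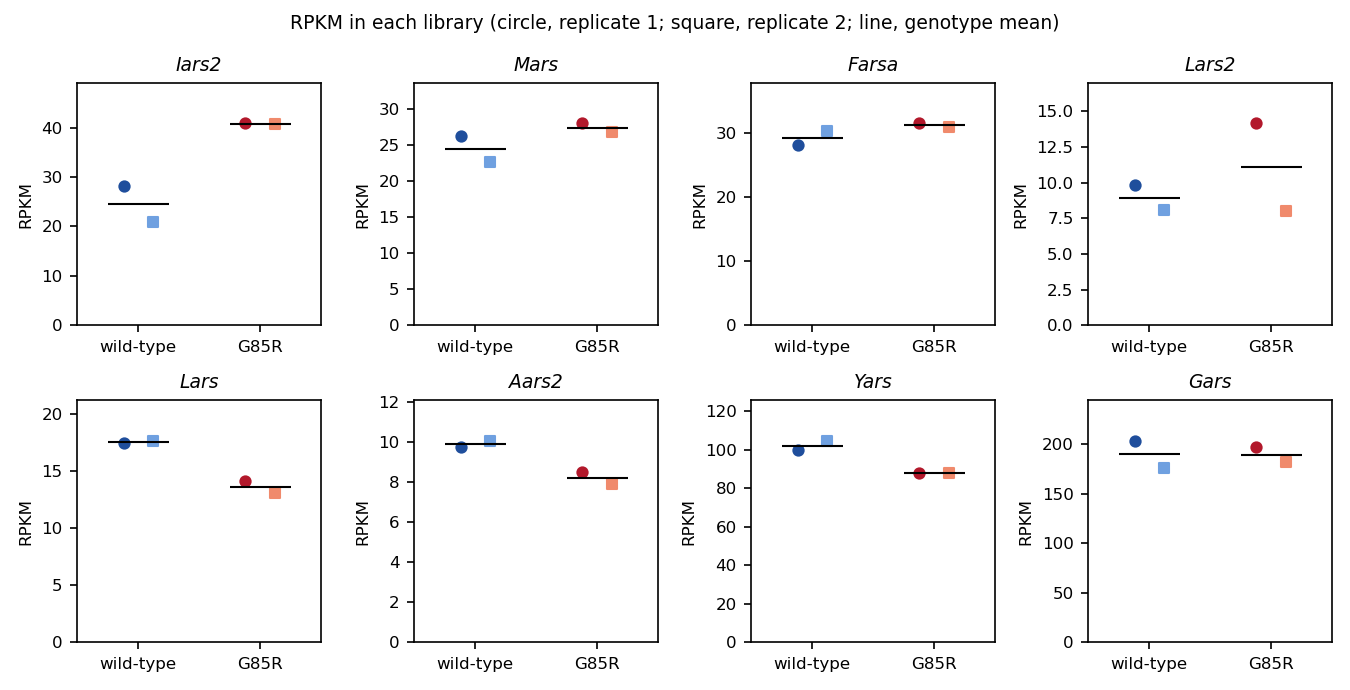
RPKM of 8 synthetase genes in each library, with the mean of each genotype as a line, for wild-type and G85R. Iars2 stands at 20.98 to 28.2 RPKM in wild-type and 40.8 to 40.9 RPKM in G85R, Lars at 17.5 to 17.7 and 13.1 to 14.2 RPKM, Gars overlaps, and Lars2 is high in G85R replicate 1 alone, at 14.2 RPKM.

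None of the other 7 enzymes of the complex passed the adjusted or the unadjusted threshold in limma. Eprs, the bifunctional enzyme for glutamate and proline, was at 50.6 and 43.9 RPKM in wild-type and 48.8 and 45.5 RPKM in G85R. Iars, for isoleucine, was at 15.0 and 15.5 RPKM in wild-type and 15.1 and 15.0 RPKM in G85R, the lowest mean of the cytosolic genes. Both genes overlapped between genotypes. Mars, for methionine and so for the initiator tRNA as well, was at 26.3 and 22.7 RPKM in wild-type and 28.0 and 26.8 RPKM in G85R, without overlap, with a log2 difference of 0.17 (SE 0.12, 95% interval -0.11 to 0.45, adjusted p = 0.692 from limma). Kars, for lysine, whose gene gives both the cytosolic and the mitochondrial enzyme, was at 63.8 and 62.7 RPKM in wild-type and 69.3 and 62.1 RPKM in G85R, a log2 difference of 0.05 (SE 0.10, adjusted p = 0.925 from limma). The 95% intervals of both included 0.

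Of the remaining complex enzymes, Rars, for arginine, was at 48.5 and 38.0 RPKM in wild-type and 43.3 and 40.5 RPKM in G85R. Qars, for glutamine, was at 19.7 and 19.9 RPKM in wild-type and 19.9 and 22.9 RPKM in G85R. Dars, for aspartate, was at 27.9 and 26.1 RPKM in wild-type and 25.6 and 26.9 RPKM in G85R. The genotypes overlapped in all 3 genes. Over the 8 synthetases of the complex the median log2 difference was -0.01, with 4 genes above 0 and 4 below.

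The scaffold proteins of the complex were expressed at levels like those of its enzymes. Eef1e1, also called p18, was at 32.0 and 27.4 RPKM in wild-type and 29.7 and 31.7 RPKM in G85R. Aimp1 (p43), as Scye1, was at 59.3 and 48.5 RPKM in wild-type and 52.7 and 47.4 RPKM in G85R, and Aimp2 (p38), as Jtv1, at 40.8 and 44.6 RPKM in wild-type and 42.0 and 46.4 RPKM in G85R. Their log2 differences were 0.05, -0.10 and 0.05, and the genotypes overlapped in each.

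The cytosolic enzymes that act outside the complex included the most abundant of all, with a median log2 difference of 0.01 over 12 genes. Nars was at 320 and 316 RPKM in wild-type and 323 and 349 RPKM in G85R, a log2 difference of 0.08 without overlap. Sars was at 256 and 251 RPKM in wild-type and 251 and 231 RPKM in G85R, a log2 difference of -0.07 with overlap. Cars, for cysteine, was at 35.9 and 29.2 RPKM in wild-type and 36.4 and 32.7 RPKM in G85R. In each of these the difference between genotypes was no larger than that between the replicates of 1 genotype.

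The phenylalanine enzyme is built of 2 kinds of subunit. Farsa, its alpha subunit, was at 28.1 and 30.3 RPKM in wild-type and 31.5 and 30.8 RPKM in G85R, without overlap, with a log2 difference of 0.09 (SE 0.10, 95% interval -0.15 to 0.34, adjusted p = 0.839 from limma). Farsb, its beta subunit, was at 45.2 and 37.5 RPKM in wild-type and 39.5 and 36.5 RPKM in G85R. The beta subunit was the higher in every library, with a ratio to alpha of 1.61 and 1.24 for wild-type replicates 1 and 2 and 1.25 and 1.19 for their G85R counterparts. Vars, for valine, was at 24.3 and 29.2 RPKM in wild-type and 23.4 and 24.2 RPKM in G85R, and Tars, for threonine, at 20.9 and 20.99 RPKM in wild-type and 18.4 and 19.7 RPKM in G85R. Both G85R values of Vars and of Tars lay under both wild-type values, with log2 differences of -0.16 and -0.14 and adjusted p of 0.722 and 0.726 in limma.

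The 7 genes in which mutations are known to cause inherited neuropathy, Gars, Yars, Aars, Hars, Mars, Kars and Wars, bear on motor neurons directly. Their median log2 difference was 0.03, with 6 above 0 and 1 below, and 0 of 7 passed the adjusted or the unadjusted threshold. Gars, whose single gene supplies both compartments with the glycine enzyme and which is mutated in Charcot-Marie-Tooth disease type 2D, was at 204 and 176 RPKM in wild-type and 197 and 182 RPKM in G85R. Its log2 difference was 0.00 (SE 0.11, 95% interval -0.26 to 0.26, adjusted p = 0.997 from limma), and its sign turned in 3 of the alternatives, which ran from -0.11 to 0.11. Yars, for tyrosine, was the one below 0, at 99.7 and 105 RPKM in wild-type and 88.2 and 88.2 RPKM in G85R. The genotypes of Yars did not overlap, and its log2 difference was -0.21 (SE 0.09, 95% interval -0.44 to 0.01, adjusted p = 0.478 from limma).

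Aars, mutated in another axonal form of Charcot-Marie-Tooth disease, was at 125 and 123 RPKM in wild-type and 132 and 122 RPKM in G85R. Its log2 difference was 0.03 (SE 0.10, adjusted p = 0.951 from limma). Hars was at 124 and 126 RPKM in wild-type and 129 and 124 RPKM in G85R, a log2 difference of 0.02 (SE 0.09, adjusted p = 0.973 from limma). Wars was at 96.6 and 108 RPKM in wild-type and 106 and 108 RPKM in G85R, a log2 difference of 0.07 (SE 0.10, adjusted p = 0.896 from limma). The genotypes overlapped in all 3, and the signs of these small differences, and of that of Kars, were not the same under every alternative. Hars and Hars2 overlap head to head on opposite strands, and with no stranded counting stated their reads in the overlap cannot be told apart.

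The mitochondrial enzymes other than Iars2 gave 0 genes past the unadjusted threshold in limma. Aars2, for alanine, was at 9.72 and 10.1 RPKM in wild-type and 8.50 and 7.91 RPKM in G85R, without overlap. Its log2 difference of -0.27 (SE 0.12, 95% interval -0.55 to 0.01) had an unadjusted p of 0.0596 and an adjusted p of 0.478 in limma. Hars2, for histidine, was at 6.66 and 6.72 RPKM in wild-type and 6.62 and 6.46 RPKM in G85R, also without overlap but by a log2 difference of only -0.03.

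Lars2, the mitochondrial leucine enzyme, had the widest gap between G85R replicates. It was at 9.85 and 8.06 RPKM in wild-type and at 14.2 and 8.02 RPKM in G85R replicates 1 and 2. G85R replicate 1 stood above the other 3 libraries, and the genotypes overlapped, with a log2 difference of 0.26 (SE 0.26, 95% interval -0.36 to 0.87, adjusted p = 0.809 from limma). That library also had the highest sum of astrocyte markers, 124 against 33.8 to 49.0 in the others. Its sums of oligodendrocyte (1027) and microglial (9.45) markers were the highest too, and the part of glial RNA in the Lars2 value was not tested. Ears2, for glutamate, was likewise highest in G85R replicate 1, at 1.45 and 1.66 RPKM in wild-type and 2.11 and 1.32 RPKM in G85R, on between 69 and 104 estimated reads.

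In the other mitochondrial enzymes described here the genotypes overlapped. Yars2, for tyrosine, was at 21.5 and 17.7 RPKM in wild-type and 18.4 and 19.2 RPKM in G85R, the highest of the mitochondrial set after Iars2. Tars2, for threonine, was at 13.2 and 14.3 RPKM in wild-type and 13.4 and 12.0 RPKM in G85R. Cars2, for cysteine, was at 9.36 and 11.0 RPKM in wild-type and 9.75 and 11.2 RPKM in G85R. These 3, with Lars2, Rars2 and Iars2, made up the upper end of the set. Rars2, for arginine, mutated in a pontocerebellar hypoplasia, was at 9.83 and 8.76 RPKM in wild-type and 9.67 and 9.66 RPKM in G85R.

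Sars2, for serine, was at 7.07 and 9.51 RPKM in wild-type and 7.86 and 8.82 RPKM in G85R. Vars2, for valine, was at 6.15 and 6.51 RPKM in wild-type and 6.49 and 5.88 RPKM in G85R. Fars2, for phenylalanine and, unlike its cytosolic counterpart, a single chain, was at 6.03 and 6.02 RPKM in wild-type and 5.99 and 6.15 RPKM in G85R. Fars2 was the most even gene of the 38, its highest value being 1.03 times its lowest. Nars2, for asparagine, was at 4.004 and 4.36 RPKM in wild-type and 4.50 and 3.47 RPKM in G85R, and Pars2, for proline, at 2.88 and 2.32 RPKM in wild-type and 3.01 and 2.32 RPKM in G85R. Mars2, for methionine, was at 1.36 and 1.70 RPKM in wild-type and 1.507 and 1.505 RPKM in G85R, and Wars2, for tryptophan, at 1.08 and 1.21 RPKM in wild-type and 1.17 and 0.956 RPKM in G85R. The 95% intervals of these last genes were among the widest, reaching from -0.67 to 0.46 on the log2 scale for Wars2.

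Divided by structural class, the medians lay close to 0. The 19 class I genes, which include Iars2 and Lars, had a median log2 difference of 0.00, with 10 above 0 and 9 below, and the 18 class II genes one of -0.02, with 9 above and 9 below. The genes whose promoter windows hold the TGATGNAA letters shown above, Yars, Gars, Aars, Iars and Tars, had log2 differences of -0.21, 0.00, 0.03, -0.02 and -0.14.

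The regulators and co-targets of the stress response gave 0 calls as well. Atf4 itself was at 92.3 and 83.0 RPKM in wild-type and 91.8 and 86.0 RPKM in G85R. Of 23 genes listed for ATF4 and its targets, 20 were high enough to be tested, 0 passed the adjusted threshold, and their median log2 difference was 0.04. Asns, asparagine synthetase, the best known amino acid response gene, was at 111 and 112 RPKM in wild-type and 107 and 107 RPKM in G85R. Ddit3, which encodes the stress factor CHOP, was at 21.7 and 24.0 RPKM in wild-type and 21.3 and 22.0 RPKM in G85R, and Trib3, a pseudokinase, was at 0.420 to 0.584 RPKM and not tested. The log2 differences of Atf4, Asns and Ddit3 were 0.02, -0.06 and -0.07.

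At an unadjusted p under 0.05, 2 genes of that list were higher and 1 was lower in G85R, out of 20, where 4.66% of all genes tested were higher and 6.37% lower. Atf3, a stress-induced factor known from injured motor neurons, was at 0.675 and 2.12 RPKM in wild-type and 3.05 and 2.85 RPKM in G85R, without overlap (log2 difference 1.22, SE 0.45, adjusted p = 0.389 from limma). Ddit4, an inhibitor of mTORC1 signalling, was at 22.8 and 29.2 RPKM in wild-type and 31.2 and 40.2 RPKM in G85R (log2 difference 0.46, SE 0.17, adjusted p = 0.402 from limma). Chac1, which degrades glutathione, was at 25.6 and 28.6 RPKM in wild-type and 18.7 and 21.6 RPKM in G85R (log2 difference -0.43, SE 0.13, adjusted p = 0.266 from limma). These 3 ATF4 targets lay in both directions and none passed the adjusted threshold.

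Of 9 genes for an eIF2 subunit, the kinases and phosphatase subunits that act on it, and the GCN2 regulators Gcn1l1 and Impact, 0 passed the adjusted threshold and the median log2 difference was -0.08. Eif2ak4, which encodes GCN2, the kinase that senses uncharged tRNA, was at 3.90 and 4.203 RPKM in wild-type and 2.97 and 2.95 RPKM in G85R (log2 difference -0.44, SE 0.15, adjusted p = 0.341 from limma). Ppp1r15b, the constitutive subunit that directs a phosphatase to eIF2, was at 5.70 and 7.55 RPKM in wild-type and 4.34 and 4.49 RPKM in G85R (log2 difference -0.56, SE 0.17, adjusted p = 0.285 from limma). Both were lower in each G85R library than in either wild-type library, and these were the 2 genes of the list, out of 9, with an unadjusted p under 0.05, against 6.37% of all genes tested that were lower at that threshold.

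The genes that act before and after charging gave 0 calls too. Of 7 genes for the elongation factors that carry charged tRNA to the ribosome and for their partner proteins, 0 passed the adjusted threshold. Their median log2 difference was -0.05. Eef1a2, the elongation factor of neurons and muscle, was at 1054 and 1074 RPKM in wild-type and 1096 and 968 RPKM in G85R. Eef1a1, its widely expressed relative, was at 4.68 and 2.86 RPKM in wild-type and 8.48 and 5.40 RPKM in G85R (log2 difference 0.87, SE 0.28, adjusted p = 0.330 from limma), but processed copies of this gene in the genome make its uniquely mapped reads uncertain. Of 23 tested genes of tRNA processing and modification, 0 passed the adjusted threshold, with a median of -0.04. At an unadjusted p under 0.05, 0 of the 23 were higher and 2 were lower in G85R, against 4.66% and 6.37% of all genes tested.

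Outside the rule but of the same family, Aarsd1, an alanyl-tRNA editing protein, was at 39.3 and 34.2 RPKM in wild-type and 36.8 and 28.4 RPKM in G85R. Tarsl2, a second cytosolic threonine enzyme, was at 20.4 and 17.96 RPKM in wild-type and 17.1 and 17.4 RPKM in G85R, close to the level of Tars. Neither passed the adjusted threshold, and their log2 differences were -0.18 and -0.15.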

How the data were processed

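RNA from laser-dissected motor neurons of 4 mice was sequenced, and the authors mapped the reads with Bowtie 0.12.3 to mm9 and to splice junctions and quantified them with Cufflinks. The deposited values are RPKM for 27189 entries per library, as calculated by the authors and again with 1 read added to each gene. The first was used, and the difference gave the RPKM of 1 read and so an estimate of reads, not an exact count.

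Genotypes were compared, 2 libraries each, with limma 3.58.1 in R 4.3.3 (lmFit, then eBayes with its variance trended on intensity). The fit took log2(RPKM + 0.1) of every gene whose mean over the libraries reached 1 RPKM, 11530 in all, and Benjamini-Hochberg adjustment ran over all of them. RPKM are not counts, so no count model was the main test, and fold changes on this scale understate those of low genes. An exact permutation test of 1 gene with 2 against 2 cannot give a two-sided p under 0.333. A log-linear test of the kind the study names, rebuilt here as a Poisson model on the rounded RPKM with 1 read added, was an alternative, as were pseudocounts of 1 and 0.01, minimum RPKM of 5, 0.1 or none, rescaling, quantile normalization, eBayes with robust estimation or without trend, the added-read RPKM, a replicate block and leaving out each library. The scripts were tested on simulated data.

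Full statistics were given for genes with an unadjusted p under 0.05, the 3 largest rises and falls without overlap, and the neuropathy genes, and in related lists for Atf4, Asns, Ddit3, Trib3 and up to 4 genes with an unadjusted p under 0.05. The genes, lists and tests were chosen with earlier results of these data known. Gene positions were from GENCODE M1 on NCBIM37 (mm9), and promoter windows were RefSeq windows of GRCm38.p6, whose letters were located on NCBIM37 by exact match. Of the listed genes, Trmt61b was not matched. A few genes and 1 promoter match count in the totals but are not reported here, in text or plots. Values were handled with Python 3.11.15, numpy 2.4.6 and pandas 2.3.3 and drawn with matplotlib 3.10.9.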

Additional observations from a re-analysis of the deposited data

How the results depend on the processing

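Over all alternatives, 81 of 93 counts and medians stayed near the reported value and 12 moved, and of 165 values of named genes 155 kept their direction and side of the threshold. With the replicate number as a block, 1 synthetase was called, Iars2 (adjusted p = 0.00351 from limma), 3 were lower at an unadjusted p under 0.05 and 3 genes of the related lists were called, while calls over all genes rose from 74 to 527. The labels give no meaning to the numbers beyond naming replicates, but the study plotted ratios of G85R to wild-type by replicate pair. Deviations of same-numbered libraries from their genotype means correlated at r = 0.220 across 11530 genes. With 2 libraries per genotype the opposite pairing gives the same value with its sign turned, so this cannot establish a pairing. The count of synthetases lower at an unadjusted p was 3 with no minimum RPKM, 2 with quantile normalization and 0 with the log-linear test. Leaving out each library in turn gave 0 to 1 synthetases called, 1 to 2 higher and 0 to 1 lower at an unadjusted p, 0 to 1 calls in the related lists, and medians from -0.057 to 0.040 for cytosolic and from -0.10 to -0.0090 for mitochondrial genes. The call was Iars2 without wild-type replicate 1 (adjusted p = 0.0191 from limma), and the genotype left with 1 library was taken to vary like the other. Signs turned for genes near 0: with quantile normalization the log2 difference of Hars was -0.012 and that of Gars -0.041, and with 1 library left out it ran from -0.015 to 0.15 for Wars, from -0.025 to 0.13 for Kars, from -0.023 to 0.089 for Aars, from -0.013 to 0.048 for Hars and from -0.11 to 0.11 for Gars. The causes were not tested. With 2 mice per genotype the median standard error was 0.12 on the log2 scale, and differences of several times that size could be missed. Iars2, at 0.74 with an SE of 0.15, did not pass the adjusted threshold in the main fit.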
